A study of Homo sapiens with 12 samples.

Results

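Genes for collagens, matrix metalloproteinases (MMPs), their tissue inhibitors (TIMPs) and the lysyl oxidases that crosslink collagen were followed in cytoplasmic RNA of U2OS cells in which DBP5, GLE1 or IPPK had been knocked down. The members were every gene on the array whose current RefSeq symbol was a numbered collagen chain, a numbered MMP, TIMP1 to TIMP4, LOX or LOXL1 to LOXL4, without antisense genes and pseudogenes. The rule found 75 genes among 27522 gene names, made up of 44 collagen chains, 22 MMPs, 4 TIMPs and 5 lysyl oxidases. Of these, 60 were well above background, a flag of the scanner software, on all 3 arrays of at least 1 siRNA, and they are the ones compared (34 collagen chains, 18 MMPs, 3 TIMPs and 5 lysyl oxidases). The probes of 49 members were well above background on all 12 arrays, and 11 members were kept through some siRNAs only, so that a member of that kind had to be brighter where it was kept.

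U2OS is a human osteosarcoma cell line. The cells received 20 nM of a control siRNA or of siRNA against DBP5 (a DEAD-box RNA helicase, gene symbol DDX19B on the array), GLE1 (its activator at the nuclear pore) or IPPK (the kinase that makes inositol hexakisphosphate, a cofactor of GLE1), delivered with Lipofectamine2000, and were kept for 48 h according to the RNA protocol of the methods. Each siRNA had 3 one-colour arrays, which the methods describe as independent experiments, and each of 3 slides held 1 array of every siRNA. Neither the labels nor the methods say which GLE1, IPPK or control siRNA of several designs was hybridised. All 4 groups were a single cell line, transfected and fractionated in the same way. A level here is the signal of a transcript in the cytoplasm of the whole culture, relative to the other transcripts on the array. Fewer cells with a transcript and less of it per cell cannot be told apart. Because the arrays were normalized to each other, a fall or rise shared by most cytoplasmic transcripts would not be seen.

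The siRNA targets were checked before anything else. The ratio to control was 0.0643 ± 0.00121 (SD, n = 3) for DDX19B on the DBP5 siRNA arrays, 0.102 ± 0.0274 for GLE1 on the GLE1 siRNA arrays and 0.187 ± 0.00815 for IPPK on the IPPK siRNA arrays. Cross effects were present, since DDX19B was at 0.49 ± 0.0237 of control after GLE1 knock-down and IPPK at 0.42 ± 0.0142 after DBP5 knock-down. Between 70.9% and 77.7% of all probes were well above background on an array, with 70.9% to 73.8% on the IPPK siRNA arrays and 73.4% to 77.7% on the others, and no spot was saturated. All 8 mesenchymal markers looked for (VIM, FN1, CDH2, RUNX2, SPARC, TWIST1, THY1 and S100A4) were well above background on all 12 arrays. CDH2 rose 1.4-fold, 2.58-fold and 1.87-fold after DBP5, GLE1 and IPPK knock-down, S100A4 rose 2.4-fold after GLE1 and fell to 0.395 of control after IPPK knock-down, and RUNX2 and THY1 fell to 0.615 and 0.729 after IPPK knock-down. Of smaller changes, VIM rose 1.24-fold with DBP5 siRNA, and SPARC fell to 0.755 and THY1 rose 1.15-fold with GLE1 siRNA. Of 7 epithelial markers 5 were well above background on all 12 arrays (EPCAM, KRT14, KRT19, CLDN3 and CLDN7), and KRT5 was on no array. The summed intensity of the epithelial list was 3186 to 3275 on the control arrays and 2957 to 3605 after DBP5 knock-down. After GLE1 and IPPK knock-down it was 4561 to 5084 and 1799 to 2539. KRT14 made up most of each sum, so the sums do not speak for the list. With GLE1 siRNA, KRT14, KRT19 and CLDN3 rose (1.68-fold, 1.79-fold and 1.31-fold), while EPCAM was at 0.735 without passing. With DBP5 siRNA, EPCAM and KRT19 were lower (0.657 and 0.86 of control), and CLDN7 passed nowhere. CDH1, the epithelial cadherin, was not well above background on any control array and at least 8.1-fold higher after GLE1, 2.02-fold after IPPK and 1.58-fold after DBP5 knock-down. Of endothelial markers, VWF gave ratios of 0.752 with DBP5 siRNA, 1.45 with GLE1 siRNA and 0.619 with IPPK siRNA (limma's adjusted p = 0.00198, 0.00025 and 5.3e-05). CDH5 passed nowhere and KDR was on no array. PECAM1 was lower with IPPK siRNA (0.525, limma's adjusted p = 0.0237), from a dim probe. That probe was well above background on 1 control array, on all 3 GLE1 siRNA arrays and on no other. The summed intensity of the list was 254 to 284 in control, and 183 to 235, 269 to 341 and 185 to 223 with DBP5, GLE1 and IPPK siRNA. Whether these shifts had a part in the results below was not tested.

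Collagens are triple helices of 3 chains. The fibrillar types (I, II, III, V, XI and others) form the banded fibres of connective tissue and bone, type IV forms the sheet of basement membranes, type VI beaded microfibrils, and the fibril-associated types decorate the fibres. MMPs are zinc endopeptidases that cut collagens and other matrix proteins, TIMPs bind and block them, and lysyl oxidases oxidise lysines of collagen and elastin so that fibres become crosslinked. Osteoblasts, the lineage that osteosarcoma resembles, are known for abundant type I collagen.

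Several members lie side by side in the genome, which allows neighbours to be set against each other. MMP7, MMP20, MMP27, MMP8, MMP10, MMP1, MMP3, MMP12 and MMP13 follow one another on chromosome 11, COL4A1 and COL4A2 start back to back on chromosome 13, COL3A1 and COL5A2 are neighbours on chromosome 2, and COL6A1 and COL6A2 on chromosome 21. The sequences of 3 such starts are printed because their genes went different ways in these data. The 120 bases before the start of MMP7 (GRCh38.p14, chr11:102530748-102530867, minus strand) and of MMP10 (chr11:102780629-102780748, minus strand) each hold an AP-1 motif at the same distance, 67 bases before the start (capitals), while the 126 bases between the starts of COL4A1 and COL4A2 (chr13:110307158-110307283, written on the plus strand) hold a CCAAT box (capitals).
MMP7: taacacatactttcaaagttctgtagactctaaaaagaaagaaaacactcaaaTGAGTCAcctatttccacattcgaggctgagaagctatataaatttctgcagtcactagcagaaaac
MMP10: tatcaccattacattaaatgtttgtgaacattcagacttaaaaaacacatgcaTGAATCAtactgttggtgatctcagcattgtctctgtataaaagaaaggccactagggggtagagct
COL4A1 and COL4A2: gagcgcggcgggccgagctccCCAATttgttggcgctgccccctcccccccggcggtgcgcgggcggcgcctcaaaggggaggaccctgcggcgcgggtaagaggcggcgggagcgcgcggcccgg
The RefSeq table of promoters, which cover the bases around each annotated start, held 50 of the 75 members. It lacked MMP1, MMP2, MMP3, MMP9, MMP12 and MMP13 among others, so the shares below say nothing of these genes. The AP-1 motif TGANTCA (N any base), searched on both strands, was in 3 of the 50 (6%), MMP7, MMP10 and MMP20, against 7.76% of all 27305 promoters. CCAAT was in 20 (40%, against 35.7%) and TATAAA in 11 (22%, against 12%). These matches describe letters in a window of sequence and no binding.

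DBP5 knock-down changed 33 of the 60 kept members. Against control, 11 were lower, which is 18.3% beside 27.5% of all 20818 genes tested, and 22 were higher, 36.7% beside 26.8%. At a difference of at least 2-fold, 4 members were lower (4.48% of all genes were) and 6 higher (5.29%). The median log2 difference over the kept members was 0.15, and over all genes -0.02. After GLE1 knock-down 38 members passed, 10 of them lower (16.7% beside 31.5% of all genes) and 28 higher (46.7% beside 30.6%). In that comparison 3 members were lower by at least 2-fold (8.43% of all genes) and 14 were higher by as much (7.81%), with a median of 0.20 against 0.01. IPPK knock-down left 18 members lower (30% beside 28.0%) and 15 higher (25% beside 27.3%), close to the shares of all genes. At least 2-fold, 8 were lower (5.35% of all genes) and 6 higher (5.80%), and the median was -0.07 against -0.03. All p-values come from limma with Benjamini-Hochberg adjustment over all genes of a comparison, at 0.05, and the 3 comparisons share their control arrays. On the log2 scale, knock-down minus control had one sign on all 3 slides in 103 of the 104 differences that passed, MMP28 after DBP5 knock-down being the exception. These differences were picked on the same arrays, so this agreement was largely fixed in advance and is no separate support. It was not counted for all genes.

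**Figure D1:**
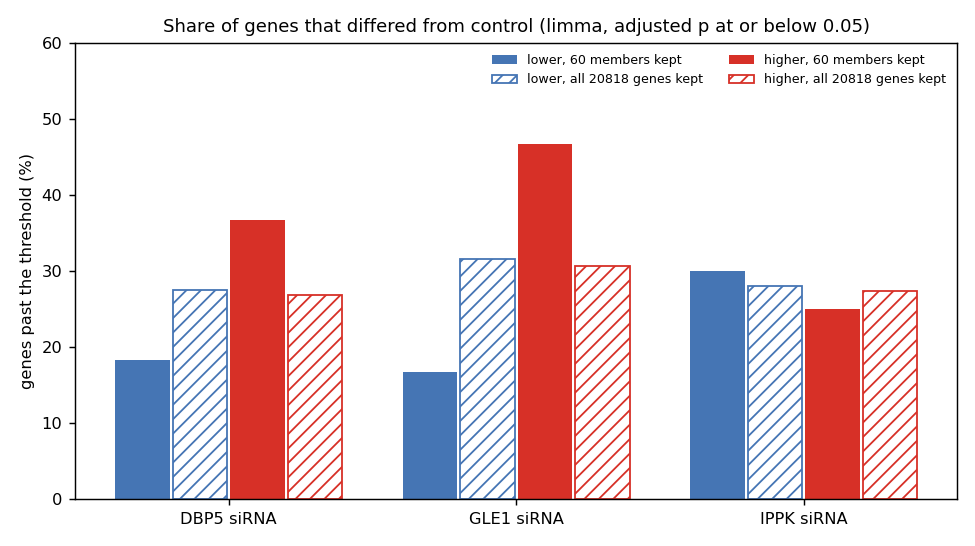
Share of genes (%) that passed limma's threshold against control, lower in blue and higher in red, for the 60 kept collagen, MMP, TIMP and lysyl oxidase genes (filled) and for all 20818 genes tested (hatched). After GLE1 knock-down 46.7% of the members were higher beside 30.6% of all genes, while after IPPK knock-down both shares were near those of all genes.

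The plot of all kept members orders their differences by role, and the values of the individual genes are given in that order.

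**Figure D2:**
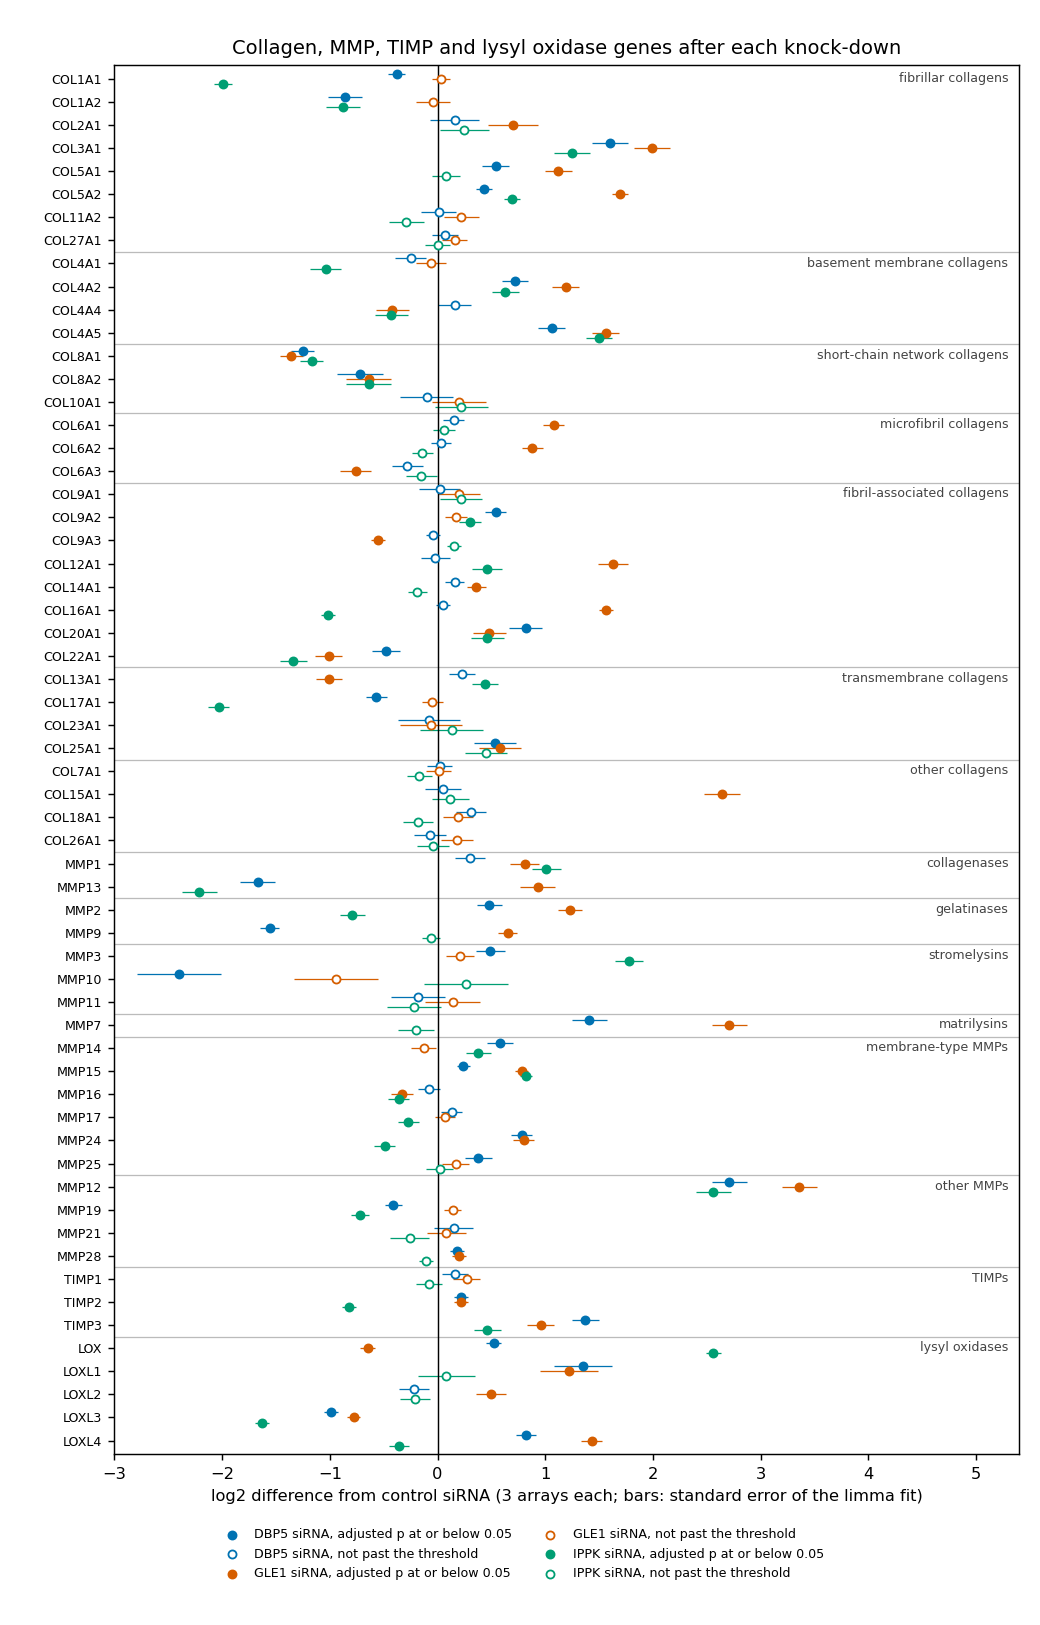
Log2 difference from control (horizontal axis) of each kept member after DBP5 (blue), GLE1 (orange) and IPPK (green) knock-down, grouped by role. Points are differences of 3-array means, bars the standard error of the limma fit, and filled points have an adjusted p at or below 0.05. MMP12 lies far to the right after all 3 knock-downs, as do MMP7 and COL15A1 after GLE1 and LOX after IPPK knock-down. The control arrays were mostly not well above background for MMP12 and not at all for COL15A1. Farthest to the left lie MMP10 after DBP5 knock-down, and MMP13, COL17A1 and COL1A1 after IPPK knock-down. MMP10 was not well above background there, and MMP13 only on 1 of 3 arrays.

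The fibrillar collagens did not move as one. COL1A1, the main chain of type I collagen, gave normalized intensities of 6050, 5899 and 6417 on the control arrays, 4628, 4410 and 5054 with DBP5 siRNA, 5718, 6287 and 6730 with GLE1 siRNA and 1671, 1426 and 1541 with IPPK siRNA. The IPPK siRNA arrays lay far below all others, and the GLE1 siRNA arrays overlapped the controls. COL1A1 thus fell to 0.252 ± 0.02 of control (SD, n = 3) after IPPK knock-down (limma's adjusted p = 1.8e-08) and to 0.767 ± 0.0535 after DBP5 knock-down (limma's adjusted p = 0.00238). Its ratio after GLE1 knock-down was 1.02 ± 0.0829 (limma's adjusted p = 0.812). GLE1 and IPPK knock-down differed from each other by 4.04-fold for this gene (limma's adjusted p = 1.4e-08).

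COL1A2, the partner chain of type I collagen, had a dim probe that was well above background on all control arrays, on 1 GLE1 siRNA array and on none after DBP5 or IPPK knock-down. It was kept through the control arrays alone, and was lower by at least 1.4-fold after DBP5 knock-down and by at least 1.1-fold after IPPK knock-down. With the processed log2 values of the authors, the call for COL1A2 after IPPK knock-down was lost (log2 difference -0.10, limma's adjusted p = 0.0783).

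COL3A1 and COL5A2, neighbouring genes for chains of types III and V that mix with type I in fibres, were higher after every knock-down. The intensities of COL5A2 were 372, 397 and 399 in control, 527, 524 and 524 with DBP5 siRNA, 1135, 1258 and 1372 with GLE1 siRNA and 596, 610 and 675 with IPPK siRNA, with no overlap between any of the groups. This gave ratios of 1.35 ± 0.00386, 3.22 ± 0.304 and 1.61 ± 0.108 (SD, n = 3), and the GLE1 siRNA arrays were above those of DBP5 by 2.38-fold (limma's adjusted p = 2.3e-07) and those of IPPK by 2.0-fold (limma's adjusted p = 8.9e-07). COL3A1 was dimmer, at 10.2 to 13.2 on control arrays, where it was not well above background, and at 36.4 to 52.4 after GLE1 knock-down. It was at least 2.53-fold, 3.31-fold and 1.98-fold higher after DBP5, GLE1 and IPPK knock-down. COL5A1, the other type V chain, rose 1.45-fold after DBP5 and 2.17-fold after GLE1 knock-down (limma's adjusted p = 0.00428 and 2.1e-05), and its ratio after IPPK knock-down was 1.06 ± 0.0433. A dimmer probe of COL5A1 gave 2.12-fold, 2.45-fold and 1.23-fold. COL2A1, the cartilage fibril chain, was well above background after GLE1 knock-down alone, at least 1.3-fold over control, and COL11A2 and COL27A1 passed in no comparison with control. A dimmer probe of COL11A2 rose 1.33-fold after IPPK knock-down (limma's adjusted p = 0.00376), where the brightest gave 0.816-fold, so its probes disagree.

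**Figure D3:**
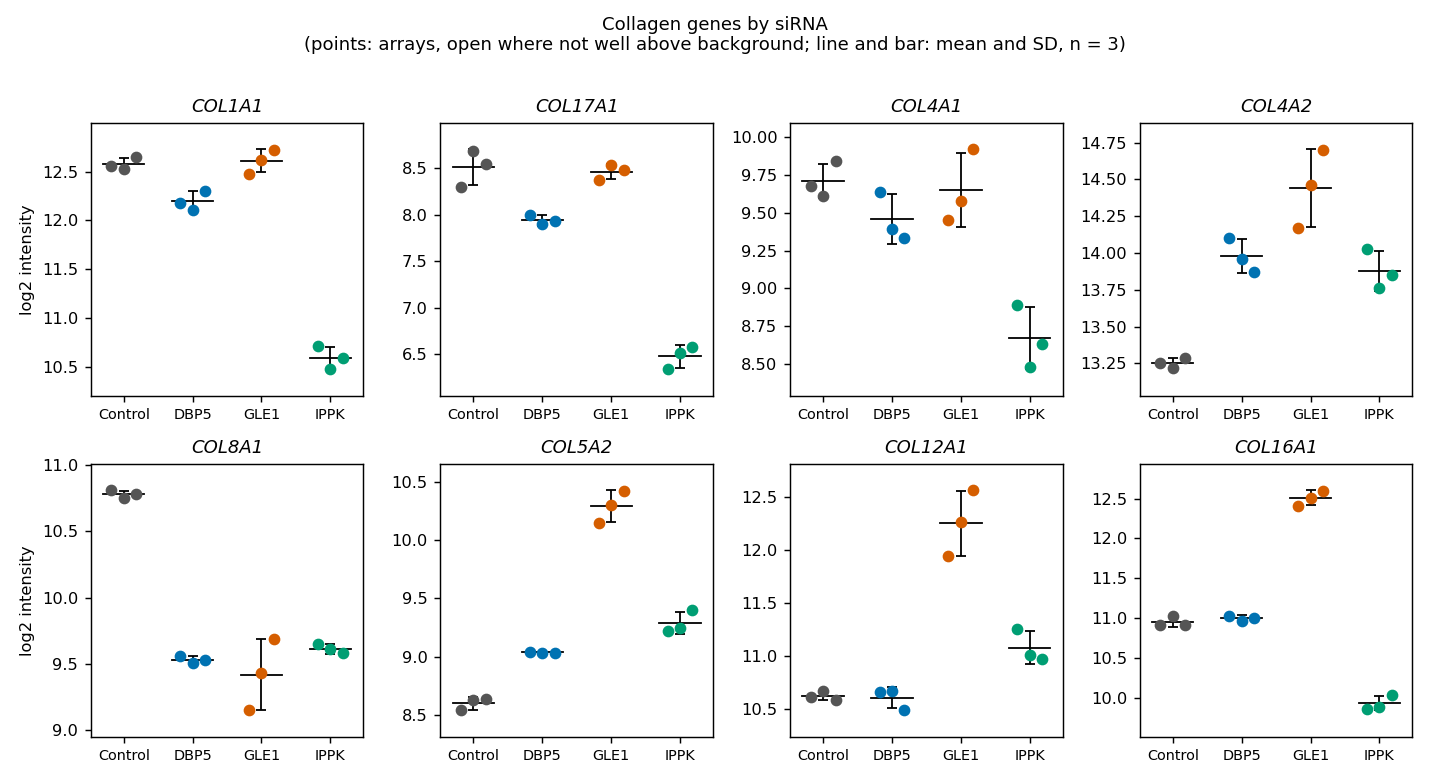
Normalized log2 intensity (vertical axes, which differ between panels) of 8 collagen genes on each array, by siRNA; points are arrays, lines and bars the mean and SD (n = 3). COL1A1, COL17A1 and COL4A1 are lowest after IPPK knock-down, COL8A1 is lower after all 3 knock-downs, and COL5A2, COL12A1 and COL16A1 are highest after GLE1 knock-down.

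Among basement membrane collagens, the paired genes COL4A1 and COL4A2 parted. Their protein chains assemble together, and the 126 bases printed above separate their starts. COL4A1 gave 821, 784 and 916 in control and 474, 357 and 396 after IPPK knock-down, a ratio of 0.485 ± 0.0708 (limma's adjusted p = 0.00011), while the DBP5 and GLE1 siRNA arrays overlapped the controls (ratios 0.838 ± 0.0993 and 0.959 ± 0.17). COL4A2 gave 9720, 9509 and 10042 in control and was higher on every other array, at 14979 to 17522 after DBP5, 18442 to 26593 after GLE1 and 13890 to 16748 after IPPK knock-down. Its ratios were 1.65 ± 0.132, 2.29 ± 0.418 and 1.55 ± 0.15 (limma's adjusted p = 0.00051, 9.4e-06 and 0.00127). After IPPK knock-down the neighbours therefore differed from control in opposite directions. COL4A5, an X-linked chain of kidney and other basement membranes, rose 2.08-fold, 2.95-fold and 2.82-fold, from 50.4 to 51.6 on control arrays to between 105 and 183 on the others. COL4A4 was modestly lower after GLE1 and IPPK knock-down (0.747 ± 0.104 and 0.742 ± 0.149). COL4A3 and COL4A6 were not kept.

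COL8A1, a short-chain collagen of vessel walls and other sheets, fell by a like amount in each comparison. Control arrays were at 1793, 1726 and 1753, and the knock-down arrays at 727 to 755 (DBP5), 568 to 827 (GLE1) and 763 to 805 (IPPK). The ratios were 0.421 ± 0.0081, 0.39 ± 0.0736 and 0.446 ± 0.0118 (limma's adjusted p = 3.7e-06, 1.2e-06 and 5.6e-06), and the log2 differences between knock-downs were -0.11 (GLE1 minus DBP5), -0.19 (GLE1 minus IPPK) and -0.08 (DBP5 minus IPPK), each with a standard error of 0.107 and none past the threshold. COL8A2, which pairs with it, fell as well, to 0.605, 0.643 and 0.641 of control (limma's adjusted p = 0.0138, 0.0225 and 0.0244). COL10A1, of hypertrophic cartilage, passed in no comparison.

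For type VI collagen, the brightest probes passed against control after GLE1 knock-down alone, and a dimmer probe of COL6A2 was lower after IPPK knock-down (0.876-fold, limma's adjusted p = 0.0241). COL6A1 and COL6A2, neighbours on chromosome 21, rose 2.12-fold and 1.84-fold (limma's adjusted p = 3.6e-06 and 1.4e-05). COL6A3, on chromosome 2, fell to 0.589 ± 0.109 of control (limma's adjusted p = 0.00093). The difference between GLE1 and IPPK knock-down passed for all 3 chains, at 2.03-fold, 2.02-fold and 0.655-fold, as did that between GLE1 and DBP5 knock-down.

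Among fibril-associated collagens, COL12A1 and COL16A1 were higher after GLE1 knock-down than after the other two by their brighter probes. COL12A1, which binds type I fibres in tendon and bone, gave 1571, 1625 and 1543 in control, 1622, 1633 and 1441 with DBP5 siRNA, 3934, 4909 and 6029 with GLE1 siRNA and 2453, 2066 and 2012 with IPPK siRNA. It rose 3.09 ± 0.664-fold after GLE1 knock-down (limma's adjusted p = 1.9e-06) and a dimmer probe gave 2.30-fold. The smaller rise of COL12A1 after IPPK knock-down, 1.37 ± 0.152-fold (limma's adjusted p = 0.0157), lost the threshold without IPPK siRNA array 1 (limma's adjusted p = 0.0603) and with the dimmer probe (0.0524). COL16A1 gave 1926 to 2089 in control, 5460 to 6201 after GLE1 and 931 to 1044 after IPPK knock-down, so that it rose 2.94 ± 0.187-fold in one and fell to 0.492 ± 0.0305 in the other. A dimmer probe of COL16A1 gave 0.955-fold after GLE1 knock-down (limma's adjusted p = 0.697) and 0.696-fold after IPPK knock-down (limma's adjusted p = 0.00636), so the rise rests on the brighter probe. COL22A1, found at tissue junctions, was lower after all knock-downs, to 0.719 and 0.498 of control after DBP5 and GLE1 knock-down and by at least 2.53-fold after IPPK knock-down. COL20A1 rose 1.77-fold, 1.39-fold and 1.38-fold, but a dimmer probe gave 1.15-fold, 1.32-fold and 0.969-fold with none past the threshold. The calls for COL20A1 after GLE1 knock-down (without control array 1 or GLE1 siRNA array 2 or 3, limma's adjusted p = 0.0799, 0.0544 and 0.0792) and COL20A1 after IPPK knock-down (without control array 1 or IPPK siRNA array 3, limma's adjusted p = 0.101 and 0.0963) were also lost. COL9A2 rose after DBP5 and IPPK knock-down (1.46-fold and 1.23-fold), COL9A3 fell after GLE1 knock-down (0.682-fold), COL14A1 rose 1.28-fold there, and COL9A1 passed nowhere.

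Of the collagens with a membrane anchor, COL17A1 and COL13A1 went separate ways. COL17A1, a hemidesmosome protein of basal epithelium, was at 315 to 410 in control, 238 to 257 after DBP5 knock-down and 81 to 95.7 after IPPK knock-down, a fall to 0.674 ± 0.0263 and to 0.244 ± 0.0207 (limma's adjusted p = 0.00057 and 5.3e-08). After GLE1 knock-down it was at 0.965 ± 0.053. Of the epithelial markers, EPCAM, KRT14 and KRT19 were also lower after IPPK knock-down (0.528, 0.707 and 0.701 of control), while CLDN3 rose 1.62-fold and CDH1 at least 2.02-fold, and their part in the result was not tested. COL13A1, a muscle and bone adhesion protein, fell to 0.497 ± 0.0755 after GLE1 knock-down (limma's adjusted p = 3.0e-05) and rose 1.36-fold after IPPK knock-down. COL25A1 was 1.45-fold and 1.49-fold higher after DBP5 and GLE1 knock-down. It was well above background on 1 of 3 control arrays and kept through the DBP5 and GLE1 siRNA arrays, so these folds are uncertain. COL15A1, a basement membrane proteoglycan, was well above background after GLE1 knock-down alone, where it was at 19.2, 22.4 and 32.9 against 3.5 to 4.4 in control, at least 1.81-fold higher, and it was kept through those arrays alone. COL23A1, COL7A1, COL18A1 and COL26A1 did not pass against control.

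The MMPs of the chromosome 11 row responded gene by gene. MMP12, the macrophage elastase, was dim in control (12.6, 16.1 and 11.7, well above background on 1 array of 3) and reached 93.4, 81.6 and 86.7 with DBP5 siRNA, 106, 154 and 159 with GLE1 siRNA and 71.7, 81.8 and 82.3 with IPPK siRNA. No knock-down array came near the control arrays. The ratios to control were 6.53 ± 0.444, 10.3 ± 2.19 and 5.88 ± 0.447 (limma's adjusted p = 2.8e-07, 3.0e-08 and 3.6e-07). MMP12 was kept through the knock-down arrays alone, so it had to be brighter there. With most control values not well above background, the size of these ratios is uncertain. GLE1 knock-down exceeded that of DBP5 by 1.58-fold and that of IPPK by 1.75-fold (limma's adjusted p = 0.00556 and 0.00138).

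MMP7 and MMP10, whose starts are printed above, went opposite ways after DBP5 knock-down. MMP7, the small matrilysin without a hemopexin domain, was at 50.4, 63.2 and 64.2 in control, 147, 165 and 159 after DBP5, 343, 467 and 357 after GLE1 and 44, 46.9 and 65.3 after IPPK knock-down. It rose 2.66 ± 0.151-fold and 6.54 ± 1.15-fold (limma's adjusted p = 3.7e-05 and 1.7e-07), and the IPPK siRNA arrays overlapped the controls (0.87 ± 0.196). MMP10, a stromelysin, was at 30, 42.7 and 44 in control and not well above background after DBP5 knock-down (12.2, 9 and 3.5), a fall of at least 2.94-fold (limma's adjusted p = 0.00038). Its values after GLE1 knock-down, 16.9 to 25.6, were below every control value without passing (limma's adjusted p = 0.0575), and those after IPPK knock-down, 40.2 to 51.4, overlapped the controls.

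**Figure D4:**
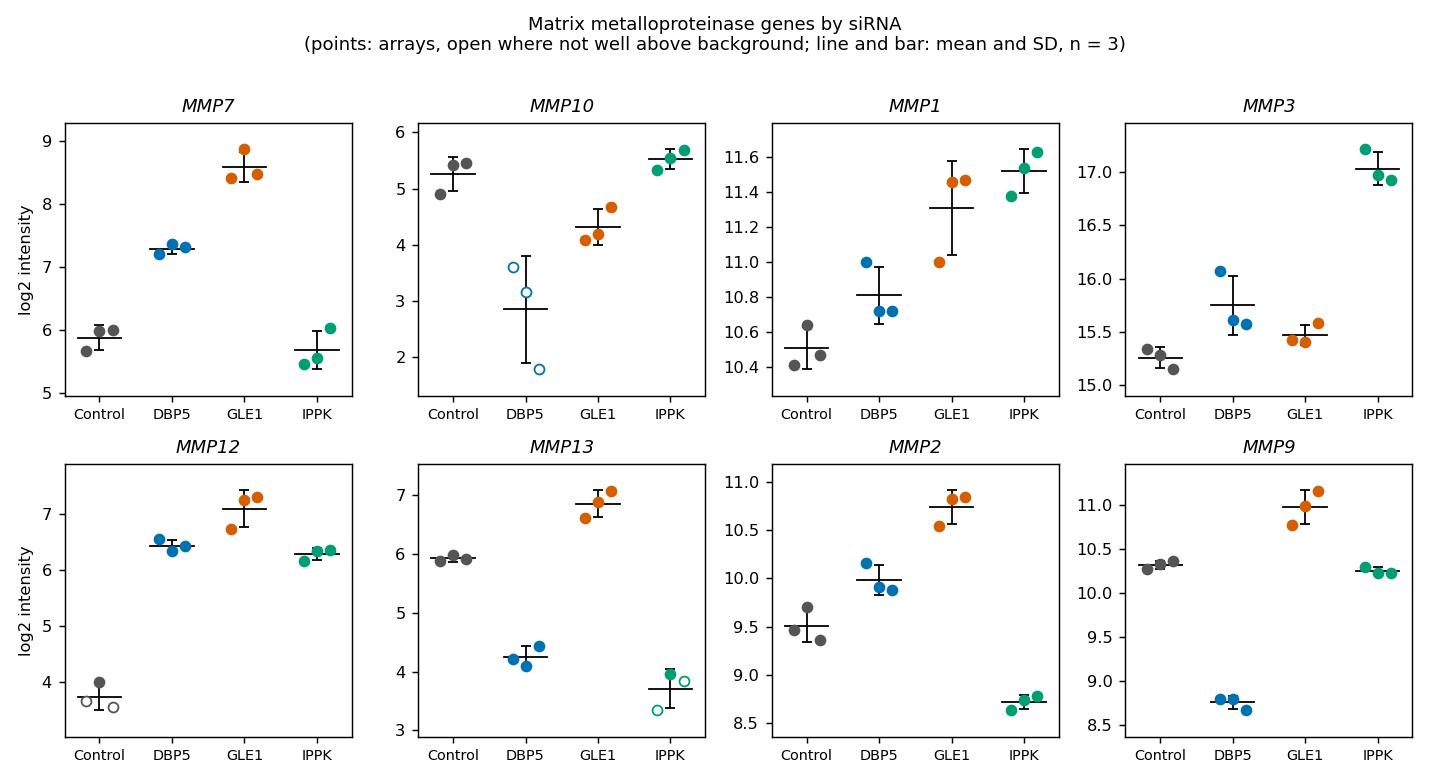
Normalized log2 intensity (vertical axes, which differ between panels) of 8 MMP genes on each array, by siRNA; points are arrays, open where not well above background, and lines and bars the mean and SD (n = 3). MMP12 is higher after each knock-down, MMP3 is highest after IPPK knock-down and MMP9 is lowest after DBP5 knock-down. The points of MMP13 are lowest after IPPK knock-down, where it was well above background on 1 of 3 arrays.

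MMP1 and MMP13 are collagenases, able to cut intact fibrillar collagen. MMP1 gave 1357 to 1598 in control, 2054 to 2842 after GLE1 knock-down and 2669 to 3173 after IPPK knock-down, rises of 1.75 ± 0.309-fold and 2.01 ± 0.174-fold (limma's adjusted p = 0.00038 and 9.9e-05). After DBP5 knock-down its ratio was 1.23 ± 0.144 (limma's adjusted p = 0.0855). MMP13, prominent in cartilage and bone, was at 58.4, 63.2 and 60 in control, 18.4, 17.2 and 21.8 after DBP5, 97.7, 117 and 133 after GLE1 and 10.1, 15.5 and 14.3 after IPPK knock-down. No groups overlapped. It fell to 0.314 ± 0.0392 and 0.216 ± 0.0468 after DBP5 and IPPK knock-down (limma's adjusted p = 1.0e-05 and 1.1e-06) and rose 1.9 ± 0.294-fold after GLE1 knock-down (limma's adjusted p = 0.00055). The probe of MMP13 was well above background on 1 of the 3 IPPK siRNA arrays, so its level there is the least certain. MMP8, the neutrophil collagenase, was not kept.

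MMP3, stromelysin 1, a broad protease that also activates pro-collagenases, was bright throughout, at 41602, 39905 and 36333 in control and 152002, 128066 and 124282 after IPPK knock-down, a rise of 3.42 ± 0.383-fold (limma's adjusted p = 1.1e-06). It rose 1.4 ± 0.287-fold after DBP5 knock-down (limma's adjusted p = 0.00911) and was at 1.16 ± 0.0775 after GLE1 knock-down. MMP11, the other stromelysin by name, passed nowhere.

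The gelatinases MMP2 and MMP9 cut denatured collagen and type IV collagen. MMP2 gave 704, 829 and 659 in control, 942 to 1147 after DBP5, 1487 to 1848 after GLE1 and 397 to 438 after IPPK knock-down, in 4 ranges that did not overlap. Its ratios were 1.39 ± 0.156, 2.35 ± 0.274 and 0.579 ± 0.0298 (limma's adjusted p = 0.00487, 4.4e-06 and 0.00018). MMP9 gave 1231 to 1311 in control, 409 to 446 after DBP5 and 1746 to 2277 after GLE1 knock-down, and on IPPK siRNA arrays it was at 1201 to 1260, a range that overlapped the controls (ratio 0.957 ± 0.0263, limma's adjusted p = 0.57). It fell to 0.339 ± 0.0166 after DBP5 knock-down and rose 1.57 ± 0.208-fold after GLE1 knock-down (limma's adjusted p = 1.7e-07 and 6.3e-05).

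All 6 membrane-type MMPs were well above background on all 12 arrays, and none differed from control by as much as 2-fold. MMP14, the main activator of pro-MMP2 at the cell surface, rose 1.5 ± 0.27-fold and 1.3 ± 0.0324-fold after DBP5 and IPPK knock-down (limma's adjusted p = 0.00177 and 0.0198) and was at 0.913 ± 0.107 after GLE1 knock-down. The call for MMP14 after IPPK knock-down was lost without control array 2 or IPPK siRNA array 2 (limma's adjusted p = 0.0641 and 0.0562). MMP15 rose after all knock-downs (1.18-fold, 1.71-fold and 1.77-fold), and MMP24 rose after DBP5 and GLE1 knock-down (1.71-fold and 1.74-fold) but fell to 0.713 of control after IPPK knock-down. MMP16 was lower after GLE1 and IPPK knock-down (0.798-fold and 0.781-fold), MMP17 after IPPK knock-down (0.828-fold), and MMP25 higher after DBP5 knock-down (1.3-fold, with a dimmer probe at 1.24-fold and limma's adjusted p = 0.114). Of the remaining kept MMPs, MMP19 fell after DBP5 and IPPK knock-down (0.754-fold and 0.606-fold). Its brighter probe was at 1.1-fold after GLE1 knock-down and a dimmer one fell to 0.719-fold (limma's adjusted p = 0.00145), so the probes disagree there, which was looked up after its values were seen. MMP28 rose 1.13-fold and 1.15-fold after DBP5 and GLE1 knock-down, and MMP21 passed nowhere.

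TIMP1, the most widely inducible inhibitor, passed against control in no knock-down (ratios 1.11 ± 0.0708, 1.2 ± 0.103 and 0.945 ± 0.172). TIMP2, which also takes part in the activation of pro-MMP2 by MMP14, was at 21643, 22588 and 20826 in control and 12038, 12154 and 12686 after IPPK knock-down, a fall to 0.567 ± 0.0159 (limma's adjusted p = 1.9e-06). It rose 1.16-fold and 1.17-fold in the other two comparisons. The call for TIMP2 after DBP5 knock-down was lost without control array 3 (limma's adjusted p = 0.0574), and that for TIMP2 after GLE1 knock-down without GLE1 siRNA array 2 (limma's adjusted p = 0.0518). TIMP3, the inhibitor that stays bound to the matrix, rose 2.59 ± 0.227-fold, 1.95 ± 0.304-fold and 1.38 ± 0.116-fold (limma's adjusted p = 5.6e-06, 5.6e-05 and 0.00885), from 88.4 to 110 in control to 234 to 277, 169 to 229 and 126 to 149. TIMP4 was not well above background on any array.

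The lysyl oxidases included the gene with the smallest adjusted p among the members, LOX itself. Its intensities were 585, 663 and 606 in control, 922, 868 and 868 with DBP5 siRNA, 359, 407 and 417 with GLE1 siRNA and 3600, 3651 and 3674 with IPPK siRNA. Every group stood clear of the others, with GLE1 below control and IPPK far above. The ratios were 1.44 ± 0.0511, 0.638 ± 0.0498 and 5.9 ± 0.0615 (limma's adjusted p = 7.8e-05, 1.0e-05 and 1.6e-09), and the log2 difference of GLE1 minus IPPK knock-down was -3.21 ± 0.068 (SE). The IPPK siRNA arrays, with the lowest COL1A1, thus had the highest LOX.

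LOXL3 fell after each knock-down, from 1469 to 1594 in control to 729 to 834, 861 to 948 and 481 to 515. That is 0.503 ± 0.0349, 0.583 ± 0.0294 and 0.324 ± 0.0109 of control, and a dimmer probe gave 0.584, 0.638 and 0.37. LOXL1, needed for elastic fibres, rose 2.56 ± 0.325-fold after DBP5 knock-down and 2.33 ± 0.984-fold after GLE1 knock-down (limma's adjusted p = 0.00137 and 0.00215). The GLE1 siRNA arrays were spread, at 732, 1640 and 1664. LOXL4 rose 1.77 ± 0.168-fold and 2.7 ± 0.238-fold and was lower after IPPK knock-down, at 0.778 ± 0.0637 (limma's adjusted p = 0.00762). LOXL2 rose after GLE1 knock-down alone (1.41 ± 0.328-fold, limma's adjusted p = 0.00992).

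**Figure D5:**
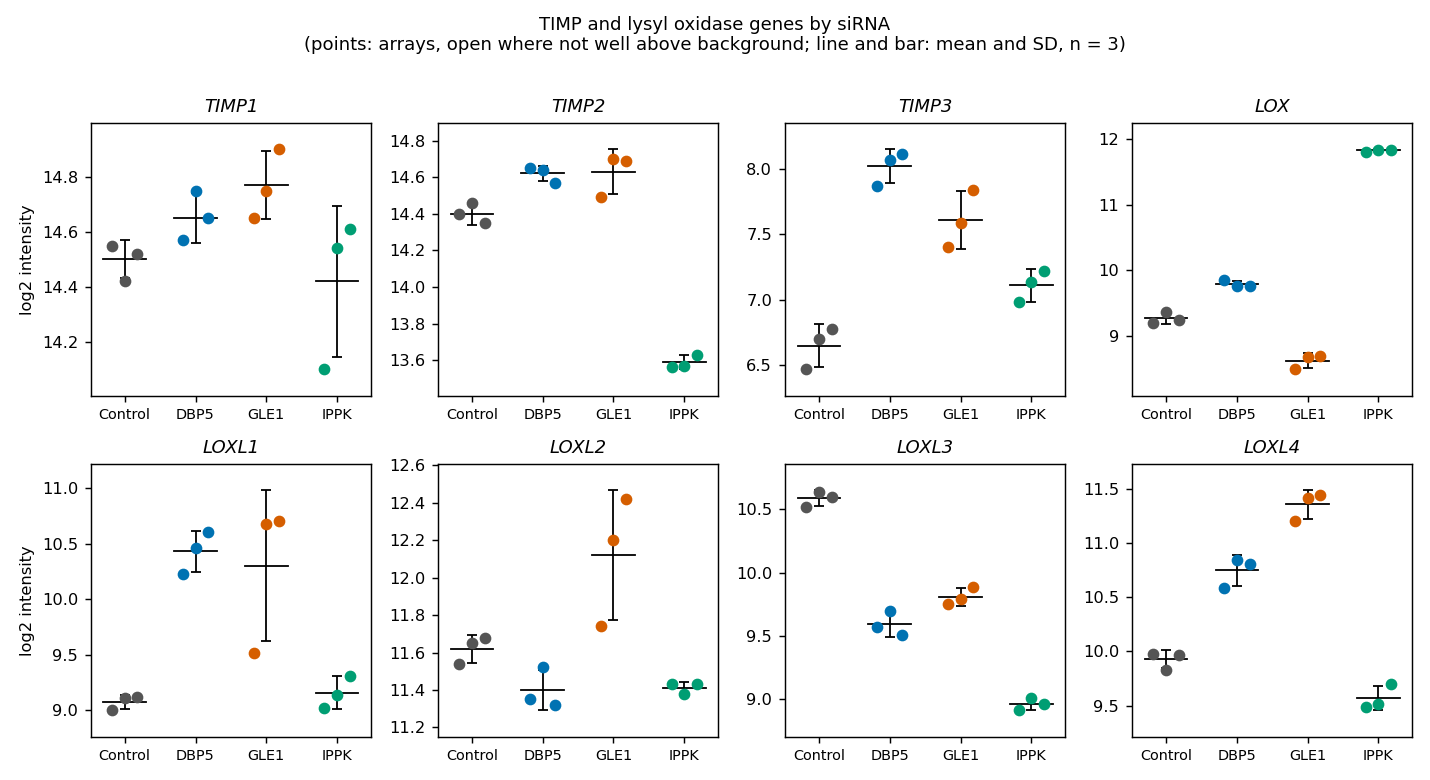
Normalized log2 intensity (vertical axes, which differ between panels) of 3 TIMP and 5 lysyl oxidase genes on each array, by siRNA; points are arrays, lines and bars the mean and SD (n = 3). LOX lies far above control after IPPK knock-down, at 5.9-fold, and below it after GLE1 knock-down, while LOXL3 is lower after each.

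The difference between knock-downs was also tested directly. Between GLE1 and DBP5 knock-down 33 members passed, 24 higher after GLE1 (40% beside 26.5% of all genes) and 9 lower (15% beside 28.0%). Between GLE1 and IPPK knock-down 40 passed, 33 higher after GLE1 (55% beside 29.4%) and 7 lower (11.7% beside 30.8%). Between DBP5 and IPPK knock-down 33 passed, 23 higher after DBP5 (38.3% beside 23.8%) and 10 lower (16.7% beside 25.1%). Of the members well above background on all GLE1 and IPPK siRNA arrays, MMP7, COL16A1, MMP2 and COL1A1 were farthest above IPPK after GLE1 knock-down, with log2 differences of 2.91, 2.58, 2.02 and 2.01, the one for COL16A1 resting on its brighter probe. LOX, MMP3 and COL13A1 were farthest below it, at -3.21, -1.56 and -1.45.

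Genes that modify, fold, trim or regulate these proteins were looked at as a list of 34, of which 30 were kept. With DBP5 siRNA 11 fell and 8 rose, with GLE1 siRNA 7 fell and 17 rose, and with IPPK siRNA 12 fell and 7 rose, with medians of 0.03, 0.26 and -0.14 on the log2 scale. Among all genes the shares that fell and rose were 27.5% and 26.8%, 31.5% and 30.6%, and 28.0% and 27.3%. SERPINH1, the collagen chaperone HSP47, fell to 0.491 ± 0.00869 of control after IPPK knock-down (limma's adjusted p = 1.9e-07), from 18985 to 20255 in control to 9460 to 9781, on the arrays with the lowest COL1A1. P4HA3, a prolyl hydroxylase subunit, fell there as well (limma's adjusted p = 0.00026), from a probe that was well above background on 1 of the 3 IPPK siRNA arrays. P3H2, a prolyl 3-hydroxylase of basement membrane collagen, fell to 0.449 ± 0.0378 after DBP5 knock-down, and CRTAP, a partner of prolyl 3-hydroxylase, to 0.39 ± 0.0518 after GLE1 knock-down.

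Rises of at least 2-fold in this list were found among proteinases and their regulators. BMP1, which trims procollagen ends, rose 2.5 ± 0.235-fold after GLE1 knock-down, and PCOLCE2, its enhancer, 3.27 ± 0.377-fold (limma's adjusted p = 1.1e-06 and 5.1e-08). RECK, a membrane-anchored MMP inhibitor, rose 2.3 ± 0.181-fold, 3.11 ± 0.326-fold and 1.99 ± 0.0659-fold after DBP5, GLE1 and IPPK knock-down.

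The members that were not kept were COL5A3, COL11A1, COL24A1, COL4A3, COL4A6, COL6A5, COL6A6, COL19A1, COL21A1, COL28A1, MMP8, MMP20, MMP26, MMP27 and TIMP4. Of these 15, 11 were not well above background on any array, and COL5A3, COL24A1, COL4A6 and COL19A1 were on some arrays without reaching all 3 of a group.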

How the data were processed

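Cytoplasmic RNA was measured on 12 one-colour Agilent arrays, 3 per siRNA, and groups and replicate numbers were read from the sample labels. The authors deposited Feature Extraction output per array, with a linear intensity after local background subtraction, median spot and background signals and flags, and a table of processed log2 values that the methods describe as LOESS-normalized. Each column of that table had a median between 7.75 and 7.76, and its correlation with the log2 of the background-subtracted intensity was 0.961 to 0.967.

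Here log2 of the background-subtracted intensity was normalized by cyclic loess between arrays, without control spots and without 169 to 358 outlier spots per array, and spots of a probe were averaged. Probes were named by accession from RefSeq (assembly GRCh38.p14, names only), matching 77.5% of 34127 probes, and the brightest probe stood for each gene. The filter kept 20818 of 27522 genes, those that the scanner flagged well above background on every array of 1 or more groups. Groups were compared by limma 3.58.1 in R 4.3.3, one mean per group over 12 arrays. Ratios are given with the SD over 3 arrays of each array's ratio to the control mean. "At least" folds set the bright group's mean against, per array of the dim group, the lowest signal well above background or the probe's own signal where that is higher. Intensities of different probes are not comparable. Precision is limited by the number of arrays and by signal over background. The p-values set a mean difference against the spread of arrays within groups, pooled over the 4 groups. Without a block, that spread includes differences between slides. The scripts for limma were tested on simulated data.

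Same-numbered arrays share a slide, and the deviations from group means of the 18 same-numbered pairs correlated at 0.318 to 0.513 against -0.285 to -0.05 for the 36 other pairs, so the numbers pair the arrays. The fit carries no block, and the block was an alternative. The other alternatives were 75th percentile scaling, quantile normalization, normexp (offset 50, on the median signal, the mean not being in the files), the authors' processed values, no filter, a filter requiring all 12 arrays, averaging the probes of a gene, each single probe, only the 6 arrays compared, the methods' t-test (two-sided, paired) and each array left out.

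Members and lists were chosen with earlier results of these data known. Named members were those past the threshold by at least 2-fold in at least 1 knock-down, COL1A1, COL1A2, COL4A1, COL4A2, MMP2, MMP14, TIMP1, TIMP2, TIMP3 and LOX, and those with probes of opposite sign in a comparison the gene passed, which gave 33. Other members are given to account for all. The values of 1 gene of the list of modifying and regulating genes are not reported here. MMP23B carries a letter and was outside the rule. Marker lists were mesenchymal, epithelial, endothelial (2 of 4 genes well above background on all 12 arrays) and haematopoietic (2 of 4 measured). Tables and figures were made with pandas 2.3.3 and matplotlib 3.10.9 in Python 3.11.15.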

Additional observations from a re-analysis of the deposited data

How the results depend on the processing

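The 75 differences of named members that passed the threshold kept their direction under every alternative run for them (59 had the filter on all 12 arrays) except the dimmer probes of COL16A1 after GLE1 knock-down (log2 difference -0.07) and of COL20A1 after IPPK knock-down (-0.05). In 51 the call also held in all of these, and in 66 when the methods' t-test was left aside. That test lost 19, namely COL1A2, COL3A1, COL5A1, COL17A1, COL22A1, MMP2, MMP3, MMP10, MMP14, LOX and LOXL4 after DBP5, COL22A1, TIMP2 and LOXL1 after GLE1 and COL12A1, COL13A1, COL20A1, MMP14 and LOXL4 after IPPK knock-down. The replicate block changed none of these calls and gave 11 lower and 22 higher members after DBP5, 10 and 28 after GLE1 and 18 and 16 after IPPK knock-down. Of members between knock-downs, 39 (GLE1 and DBP5), 40 (GLE1 and IPPK) and 36 (DBP5 and IPPK) differed with the block. With the filter on all 12 arrays, which leaves 49 members, 7 were lower after DBP5 knock-down. The methods' t-test with Benjamini-Hochberg adjustment gave 6 lower and 10 higher after DBP5 knock-down (of all genes 2604 and 2443, beside 5733 and 5569 by limma), and 14, 25 and 16 members between GLE1 and DBP5, GLE1 and IPPK, and DBP5 and IPPK knock-down (of all genes 2791 lower and 2518 higher, 5286 and 4918, and 2073 and 1877, beside 5838 and 5526, 6402 and 6125, and 5220 and 4963 by limma). Unadjusted at the threshold of the methods it gave 8 lower and 18 higher members for DBP5, 9 and 26 for GLE1 and 17 and 15 for IPPK against control. The filter tests fewer genes, and the cause was otherwise not tested. With each array left out in turn, the counts were 10 to 12 lower and 19 to 23 higher after DBP5 knock-down, 7 to 11 and 23 to 29 after GLE1 knock-down and 15 to 19 and 13 to 16 after IPPK knock-down, and 31 to 35, 36 to 40 and 27 to 34 between the knock-downs in the order above. Probes near background in some groups (COL1A2, COL2A1, COL3A1, COL15A1, COL22A1, COL25A1, MMP10, MMP12, MMP13 and P4HA3) set only bounds there or rest on few arrays above background.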
